A study of Mus musculus with 8 samples.

Results

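Coenzyme Q (ubiquinone) biosynthesis was followed in heart RNA through 10 nuclear genes, Pdss1, Pdss2, Coq2, Coq3, Coq4, Coq5, Coq6, Coq7, Coq8a and Coq9, which were picked by name as the core enzymes and accessory proteins of the pathway. All 10 were found among the 55383 rows of the deposited gene table, and all 10 passed the filter on low values that left 14522 genes for testing. None of them passed the test for a difference between Ssbp1 knockout and control hearts after correction for the number of genes tested. Their levels are described here heart by heart, because the size of change that 2 hearts per group leave possible differs widely from gene to gene.

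The hearts came from mice at about 5 weeks of age on a C57BL/6N nuclear background. In the knockouts (Ssbp1-/- in the labels, L/L, cre in the study), Ssbp1, the gene for mtSSB, which coats single strands of mitochondrial DNA, was disrupted by a Cre recombinase under the muscle creatine kinase promoter (Ckmm), which acts in heart and skeletal muscle. In the study the controls (Ssbp1+/+ in the labels, L/L in the study) carried the loxP-flanked gene without Cre, so loxP sites were shared by both groups. The labels describe the cross with Cre mice for every sample and do not say which mouse carried Cre. Whole hearts were used, so fibroblasts, endothelial and blood cells without active Cre were in every sample. The comparison rests on 2 control hearts and 2 knockout hearts, each numbered replicates 1 and 2, whose titles and genotype fields match. For 2 more mice the title and the genotype field contradict each other, and these were kept out of the comparison. Nothing in the labels ties the same replicate number to a shared litter or day.

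Coenzyme Q is a lipid of the inner mitochondrial membrane that carries electrons from complex I, complex II and several other dehydrogenases to complex III. Its ring comes from tyrosine by way of 4-hydroxybenzoate and its tail from the mevalonate pathway. The ring is joined to the tail and then modified by enzymes that sit together on the matrix face of the inner membrane. All of these proteins are encoded in the nucleus and imported, and the heart, with its dense mitochondria, is rich in the lipid.

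The 4 libraries held 19716305 to 25682093 reads, with 6568812 to 11259234 of them on genes of the nucleus. Values are normalized counts, that is, reads divided by 1 size factor per library. Ssbp1 was at 177 and 216 in the controls, compared with 170 and 163 in the knockouts, a difference of -0.23 on the log2 scale (adjusted p = 0.890, limma). This whole-gene value checks the labels only weakly, because the deletion removes part of the gene and cells without Cre keep it. Cardiomyocyte markers were present in all 4 hearts, with a summed normalized count of 526471 to 562536 in control hearts and, in knockout hearts, 538182 to 557373. Red blood cell markers summed to 14398 to 18944 in the controls, 14926 in knockout replicate 1 and 41866 in knockout replicate 2, which stood apart from the other hearts. All 6 fibroblast markers had a lower knockout mean, and their sum was 14287 to 15333 in the control hearts, against 11170 to 13684 in the knockout hearts. Whether cell composition takes part in any value of a coenzyme Q gene was not tested, and in whole tissue fewer cells of a type cannot be told apart from less RNA per cell.

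Promoter sequence (RefSeq windows on GRCm38.p6, 250 bases before to 50 after the annotated start) was at hand for 9 of the 10 genes, with 11 windows in all. The windows of Pdss1 and Coq9 are shown because these genes had the highest and the lowest difference between knockout and control hearts, a choice made after the values were seen. Capitals mark a match to AAGGTCA, the short sequence read by estrogen-related receptors, which are nuclear receptors of mitochondrial genes in the heart. The Pdss1 window lies on the plus strand at chr2:22895272-22895571 and the Coq9 window on the plus strand at chr8:94838163-94838462.
Pdss1: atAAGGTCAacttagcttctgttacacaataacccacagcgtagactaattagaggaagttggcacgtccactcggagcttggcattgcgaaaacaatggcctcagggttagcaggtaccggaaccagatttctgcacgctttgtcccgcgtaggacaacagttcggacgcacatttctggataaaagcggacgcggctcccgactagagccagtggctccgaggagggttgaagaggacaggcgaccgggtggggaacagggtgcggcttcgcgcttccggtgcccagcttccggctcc
Coq9: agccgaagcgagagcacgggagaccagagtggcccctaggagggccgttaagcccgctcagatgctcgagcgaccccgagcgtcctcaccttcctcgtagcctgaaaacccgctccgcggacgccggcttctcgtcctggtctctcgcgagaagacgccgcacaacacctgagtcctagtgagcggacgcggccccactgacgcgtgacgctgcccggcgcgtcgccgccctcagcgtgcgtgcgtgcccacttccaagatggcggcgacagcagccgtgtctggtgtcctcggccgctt
In Pdss1 the match began 248 bases before the start site. AAGGTCA stands on either strand in 4.72% of the 32851 RefSeq promoters of this length and was found in 1 of the 11 windows. CACGTG, the E-box read by helix-loop-helix factors such as USF and MYC, was found in Coq4 only among the 11 windows and stands in 7.15% of all promoters. GCATGCGC, part of the site of nuclear respiratory factor 1, was found in Coq2 only and stands in 2.71%. TGATGNAA, the composite element of ATF4 and C/EBP factors, was in none of the 11 windows and stands in 3.97% of all promoters. The Coq9 window held none of these motifs, but it holds the annotated start of Ciapin1, a gene of cytosolic iron-sulfur cluster assembly transcribed in the opposite direction. This is not particular to Coq9, as the Coq6 window holds the annotated start of Fam161b, also transcribed in the opposite direction. Among the 13279 promoters of tested genes the shares were 3.23% for AAGGTCA, 9.67% for CACGTG, 4.86% for GCATGCGC and 2.26% for TGATGNAA. No binding was measured, and the matches are a description of the letters.

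Of all genes tested, 11 (0.0757%) were called higher and 6 (0.0413%) lower in the knockout hearts at an adjusted p under 0.05. Among the 10 coenzyme Q genes the counts were 0 and 0 with limma, and they were 0 and 0 also with edgeR and DESeq2 on the reads behind the values. At an unadjusted p under 0.05 limma picked 1 of the 10, Coq9, against 6.11% of all genes tested, DESeq2 picked 1, also Coq9, and edgeR 0. The log2 fold change (knockout minus control) was positive for 4 genes and negative for 6, with a median of -0.060 against 0.0024 over all genes, whereas with libraries scaled to equal totals over all genes, mitochondrial ones included, all 10 were positive (median 0.24 against 0.30 over all genes). Both knockouts lay above both controls for 1 gene (Pdss1), against 18.1% of all genes. Both knockouts lay below both controls for 4 genes (Pdss2, Coq3, Coq5 and Coq9), against 17.5% of all genes, and the groups overlapped for the other 5. The difference between the group means was larger than the gap within either group for 3 genes, Coq3, Coq5 and Coq9. The share of all genes that meet this was not computed, so the count cannot be read as a trait of these genes. Knockout replicate 2 weighed on the median, which was 0.050 without that heart and -0.14 without knockout replicate 1.

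**Figure D1:**
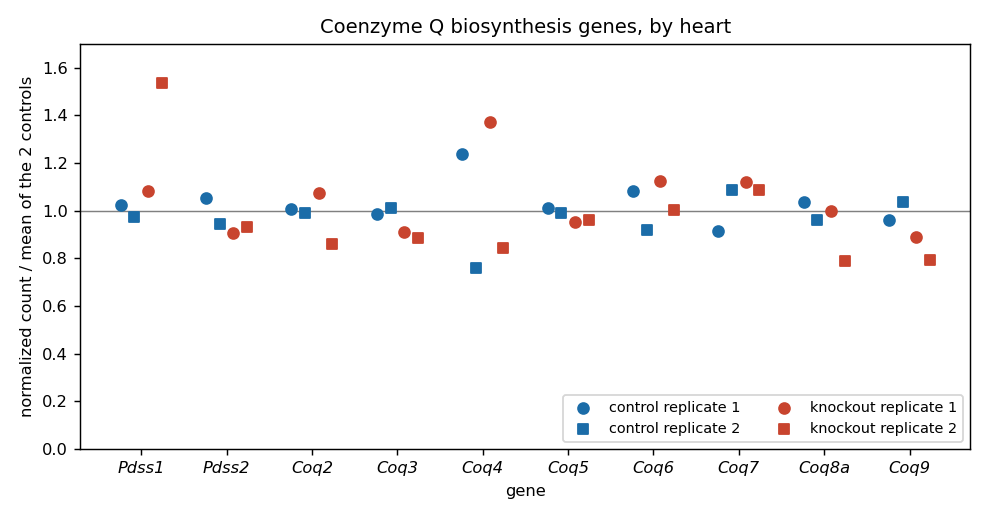
Normalized count of each coenzyme Q gene divided by the mean of the 2 control hearts (vertical axis, no unit), with 1 point per heart, controls in blue and knockouts in red. Most points lie close to 1, Pdss1 is highest in knockout replicate 2 (227 against 144 to 160 in the other hearts), and the 2 hearts of a group differ most for Coq4.

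The tail is built by a polyprenyl diphosphate synthase with 2 kinds of subunit, the catalytic Pdss1 and its partner Pdss2. Pdss1 (ENSMUSG00000026784.14, GRCm38 chromosome 2, 22895522 to 22940266, plus strand) was at 151 and 144 in the controls, compared with 160 and 227 in the knockouts. Both knockouts were above both controls, with most of the difference carried by replicate 2. The counting intervals (exact Poisson, 95%, counting error only) of the knockouts were 138 to 184 and 202 to 255, so these hearts differed from each other by more than counting error. The log2 fold change was 0.36 (SE 0.21, 95% interval -0.13 to 0.86, adjusted p = 0.837, limma), and the knockout mean was 30.9% higher. Without knockout replicate 1 it was 0.62 and without knockout replicate 2 it was 0.11, both positive and neither past the threshold. Knockout replicate 2 is also the heart with the high red blood cell markers, whose part in this value was not tested.

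Pdss2 (ENSMUSG00000038240.13, chromosome 10, 43221486 to 43464882, plus strand) was at 224 and 201 in control hearts and, in knockout hearts, 193 and 198. Both knockouts were just below the lower control, and the log2 fold change was -0.12 (SE 0.14, 95% interval -0.47 to 0.23, adjusted p = 0.936, limma). The ratio of Pdss1 to Pdss2, each per length of transcript, was 0.877 and 0.930 in the control hearts, against 1.07 and 1.49 in the knockout hearts. The ratios of the groups did not overlap, and the log2 difference was 0.48. This separation follows from Pdss1 being higher and Pdss2 lower in both knockouts, so it adds no evidence beyond the 2 genes. An exact two-sided permutation test could thus only give 0.333, the smallest p with 2 hearts against 2.

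Coq2 (ENSMUSG00000029319.8, chromosome 5, 100654723 to 100675140, minus strand) encodes the membrane enzyme that attaches the tail to 4-hydroxybenzoate. Its values were 481 and 473 in the controls, compared with 512 and 410 in the knockouts. The controls lay between the knockouts, with replicate 1 the highest and replicate 2 the lowest of the 4 hearts. In log2 terms the fold change was -0.058 (SE 0.14, 95% interval -0.40 to 0.28, adjusted p = 0.968, limma), and it was 0.10 without knockout replicate 2.

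The ring is then methylated and hydroxylated. Coq3 (ENSMUSG00000028247.2, chromosome 4, 21879673 to 21912162, plus strand), the O-methyltransferase that acts on the ring's hydroxyl groups, was at 427 and 438 in control hearts and, in knockout hearts, 393 and 383. Both groups were tight and did not overlap. The log2 fold change was -0.16 (SE 0.11, 95% interval -0.43 to 0.12, adjusted p = 0.890, limma).

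Coq5 (ENSMUSG00000041733.10, chromosome 5, 115279666 to 115296972, plus strand), the C-methyltransferase of the ring, was at 1088 and 1066 in the control hearts, against 1026 and 1035 in the knockout hearts. Both knockouts were below both controls by a small margin. This gave a log2 fold change of -0.063 (SE 0.091, 95% interval -0.28 to 0.16, adjusted p = 0.951, limma), and no other coenzyme Q gene among the 10 had so narrow an interval.

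Coq6 (ENSMUSG00000021235.13, chromosome 12, 84361657 to 84373796, plus strand), a flavin-dependent monooxygenase that hydroxylates the ring, was at 445 and 377 in the controls, compared with 462 and 412 in the knockouts. The groups overlapped, and the log2 fold change was 0.092 (SE 0.14, 95% interval -0.24 to 0.43, adjusted p = 0.952, limma), or -0.027 without control replicate 2. Coq7 (ENSMUSG00000030652.11, chromosome 7, 118509659 to 118533356, minus strand), the hydroxylase of the step before the last methylation, was at 367 and 436.5 in control hearts and, in knockout hearts, 451 and 436.1. Control replicate 1 was low, and the other 3 hearts were close together. The log2 fold change was 0.15 (SE 0.13, 95% interval -0.17 to 0.47, adjusted p = 0.909, limma).

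Coq4, Coq8a and Coq9 hold the enzymes together, regulate them or bind their lipid substrates. Coq4 (ENSMUSG00000026798.10, chromosome 2, 29787493 to 29797935, plus strand), needed to assemble the complex, was at 134 and 82.2 in the control hearts, against 148 and 91.0 in the knockout hearts. The first heart of each group was high and the other low, so the groups overlapped. These values rest on 137 and 61 reads in the controls, compared with 180 and 119 in the knockouts, and the counting intervals of the controls (112 to 158 and 62.9 to 106) did not overlap. The fitted log2 fold change was 0.15 (SE 0.33, 95% interval -0.65 to 0.94, adjusted p = 0.968, limma). It was -0.20 without control replicate 2 and also without knockout replicate 1. Its interval, from 0.637-fold to 1.92-fold, was the widest of the 10 genes.

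Coq8a (ENSMUSG00000026489.13, chromosome 1, 180165238 to 180199602, minus strand), an atypical kinase-like protein of the complex, was at 3981 and 3695 in control hearts and, in knockout hearts, 3832 and 3023. Knockout replicate 1 lay between the controls and only replicate 2 was below them. The log2 fold change was -0.17 (SE 0.13, 95% interval -0.48 to 0.14, adjusted p = 0.890, limma), or -0.0012 without knockout replicate 2.

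Coq9 (ENSMUSG00000031782.15, chromosome 8, 94838321 to 94854895, plus strand), a lipid-binding protein that works with Coq7, was at 2697 and 2909 in the control hearts, against 2493 and 2221 in the knockout hearts. Both knockouts were below both controls, and the difference between the means was -15.9% of the control mean. On the log2 scale the difference was -0.25 (SE 0.097, 95% interval -0.49 to -0.015, unadjusted p = 0.0405, limma), and this was the 1 interval of the 10 that did not hold 0. The adjusted p was 0.800 (limma), and the unadjusted p was 0.0544 with edgeR. With 1 heart left out the log2 fold change was between -0.33 and -0.17, negative each time, but it was 0.046 with equal totals over all genes. Ciapin1, whose start lies in the Coq9 window shown above on the other strand, was at 435 and 294 in the controls, compared with 372 and 418 in the knockouts, with overlapping groups. The counting was strand-specific.

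**Figure D2:**
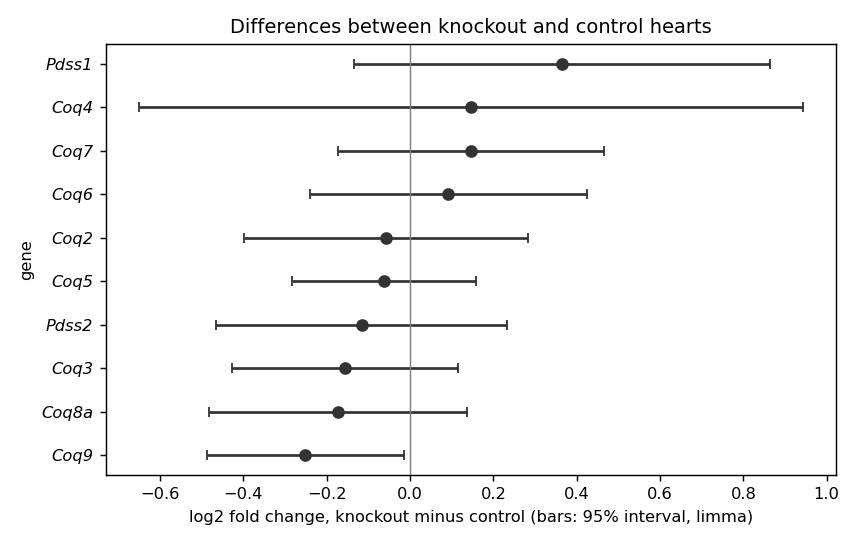
Log2 fold change of each gene (knockout minus control, horizontal axis) with its unadjusted 95% interval from limma as a bar, 2 hearts per group, in order of the difference. The bars of 9 genes cross 0, Coq9 lies at -0.25 with its bar just below 0 (0.046 with equal totals over all genes), and Coq4 has the widest bar.

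Summed over the 10 genes, the normalized count was 9995 and 9821 in control hearts and, in knockout hearts, 9669 and 8437. As CPM, counting reads on nuclear genes only, the sum was 1139 and 1110 in the control hearts, against 1093 and 979 in the knockout hearts. Both knockouts were lower, and replicate 2, the heart with the high red blood cell markers, had the larger gap. The part of these markers in the values was not tested. Of the 10 genes, 4 (Coq2, Coq3, Coq8a and Coq9) were lowest in knockout replicate 2, while Pdss1 was highest there. The share of all genes lowest or highest in that heart was not computed. Coq8a made up 35.8% to 39.8% of the sum in the 4 hearts, Coq9 25.8% to 29.6% and Coq5 10.6% to 12.3%. A difference in Coq8a or Coq9 therefore moves the sum far more than one in Pdss1, which held 1.47% to 2.69%.

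To compare genes with each other, the normalized count was divided by the length of each gene's longest coding transcript. Coq9 had the highest level, at 1567 ± 83.5 per kb in the controls, compared with 1317 ± 107 in the knockouts (SD, n = 2 each). Coq8a followed at 953 ± 50.1 and 851 ± 142, and Coq5 at 529 ± 7.69 and 506 ± 3.01. These 3 genes were above the other 7 in every heart, also when merged exon length was used.

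Coq7 came next in the controls, at 331 ± 40.2 per kb, then Coq2 at 274 ± 3.24, Coq6 at 231 ± 26.9 and Coq3 at 163 ± 2.87 (SD, n = 2 each). Levels were lowest for Pdss2 at 99.8 ± 7.67, Pdss1 at 90.0 ± 3.16 and Coq4 at 54.3 ± 18.4. No neighbours in this order overlapped between the control hearts. In the knockouts Coq2 (264 ± 41.2) and Coq6 (246 ± 19.8) overlapped, and Pdss1 (118 ± 29.0) stood above Pdss2 (91.9 ± 1.79). With merged exon length Coq7 moved from rank 4 to rank 7 in the controls. In the knockouts Pdss2 moved from rank 9 to rank 10 and Coq4 from rank 10 to rank 9. The order in the middle and at the bottom therefore depends on the length used, and overlap of neighbours was examined with transcript length only.

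**Figure D3:**
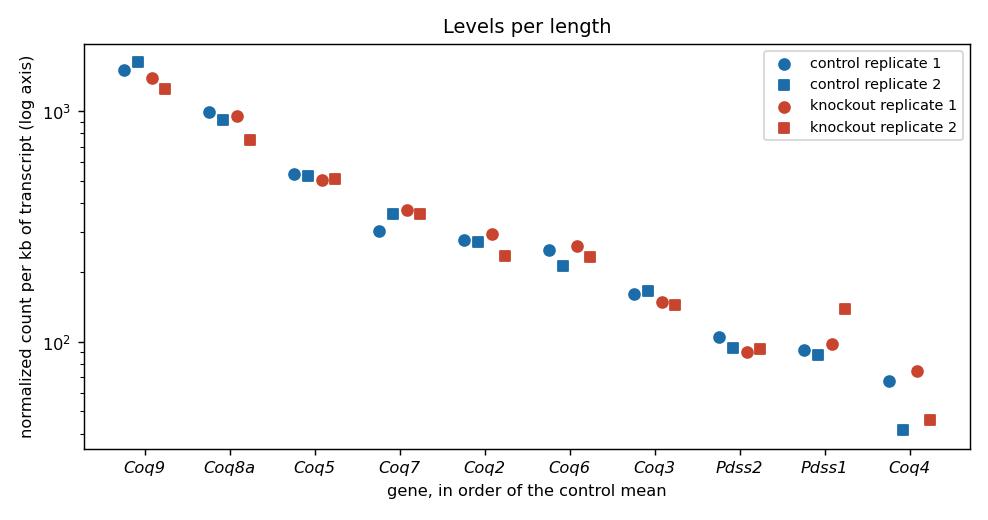
Level of each gene per heart, as the normalized count per kb of transcript on a log axis, ordered by the control mean, with controls in blue and knockouts in red. Coq9, Coq8a and Coq5 lead in all 4 hearts, and Pdss1 lies above Pdss2 in the knockouts and below it in the controls.

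Further genes that handle coenzyme Q or control the pathway were described by their counts. Of 9 such genes, 0 were called in either direction, the median log2 fold change was 0.11, and 5 lay above and 1 below the controls in both knockouts, against 18.1% and 17.5% of all genes. That 1 gene was Coq10b, which encodes a lipid-binding protein needed for coenzyme Q to work in respiration. It was at 246 and 236 in control hearts and, in knockout hearts, 171 and 183, which gave tight groups that did not overlap. The log2 fold change was -0.44 (SE 0.14, 95% interval -0.78 to -0.10, unadjusted p = 0.0184, adjusted p = 0.750, limma). Its paralogue Coq10a was at 1027 and 992 in the control hearts, against 1107 and 1070 in the knockout hearts (log2 fold change 0.11, adjusted p = 0.905, limma). The ratio of Coq10b to Coq10a was thus 0.240 and 0.238 in the controls, compared with 0.155 and 0.171 in the knockouts. This separation follows from the opposite directions of the 2 genes and adds no evidence beyond them. The exact two-sided permutation p could only be 0.333, the smallest possible with 2 against 2. Adck2, a relative of Coq8a, was at 66.5 and 137 in control hearts and, in knockout hearts, 74.1 and 55.1, and its groups overlapped.

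The mevalonate pathway gives the building blocks of the tail. Of 9 genes tested, 0 were called, 5 had a positive and 4 a negative log2 fold change, and the median was 0.068. Both knockouts lay above both controls for 3 genes and below for 2, against 18.1% and 17.5% of all genes. Hmgcs1, an early synthase of the pathway, was at 455 and 447 in the controls, compared with 509 and 578 in the knockouts (0.26, adjusted p = 0.809, limma). The groups did not overlap, but the difference did not pass the test. Pmvk, the kinase of phosphomevalonate, was at 94.8 and 83.5 in control hearts and, in knockout hearts, 80.7 and 65.8 (-0.28, adjusted p = 0.895, limma).

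Among 6 genes that supply the ring, electrons or methyl groups 0 were called and 5 had a positive log2 fold change. Of these 5, Hpd and Tat had a lower mean in the knockouts (41.0 in controls and 37.2 in knockouts for Hpd, 31.5 and 26.2 for Tat), their sign on the log scale comes from 1 control near 0, and Hpd was at -0.20 with edgeR and -0.14 with DESeq2. Fdxr, the reductase that feeds electrons to Coq6, was at 47.9 and 66.0 in the control hearts, against 65.1 and 70.4 in the knockout hearts. Hpdl, a dioxygenase of the route to the ring, was at 31.3 and 20.2 in the controls, compared with 33.0 and 31.4 in the knockouts. These groups were near each other or overlapped. Hpd, a liver enzyme of tyrosine breakdown, was at 82.1 and 0 in control hearts and, in knockout hearts, 57.7 and 16.8. Hepatocyte genes, picked after these values were seen, had the same order among hearts, with Alb at 2875 and 4.04 in the control hearts, against 1469 and 378 in the knockout hearts. The part of liver RNA in any value was not tested, and Coq4 was also high in the first heart of each group.

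On the side of use, 0 genes were called among the 7 other dehydrogenases that pass electrons to coenzyme Q, the 4 subunits of complex II and the 9 nuclear subunits of complex III. The medians of the log2 fold change were -0.066, 0.066 and 0.053. Both knockouts lay above both controls for 0, 1 and 3 genes of these lists, against 18.1% of all genes. They lay below for 0 genes of each list, against 17.5%. Etfdh, which takes electrons from fatty acid oxidation, was at 4339 and 5432 in the controls, compared with 4728 and 4260 in the knockouts (-0.11, adjusted p = 0.932, limma), with overlapping groups. Sqor, the sulfide oxidoreductase, was at 196 and 276 in control hearts and, in knockout hearts, 205 and 187 (-0.25, adjusted p = 0.898, limma). Chdh, the choline dehydrogenase, was at 27.4 and 0 in the control hearts, against 12.4 and 8.42 in the knockout hearts, and follows the order of the hepatocyte genes. Sdhb, the iron-sulfur subunit of complex II, was at 4516 and 4505 in the controls, compared with 5160 and 4827 in the knockouts (0.15, adjusted p = 0.837, limma). Cyc1, the cytochrome c1 of complex III, was at 3522 and 3286 in control hearts and, in knockout hearts, 3729 and 3794 (0.14, adjusted p = 0.839, limma). Knockouts were above controls in both Sdhb and Cyc1, and neither difference passed the test. The small complex III subunit Uqcr10 was at 1514 and 1513 in the control hearts, against 1623 and 1620 in the knockout hearts, also apart. Uqcrb was at 3324 and 3282 in the controls, compared with 3549 and 3340 in the knockouts. The groups overlapped for the complex II subunits Sdha (8499 and 9948 in the controls, 10085 and 9309 in the knockouts) and Sdhc (2318 and 2395, then 2545 and 2362).

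**Figure D4:**
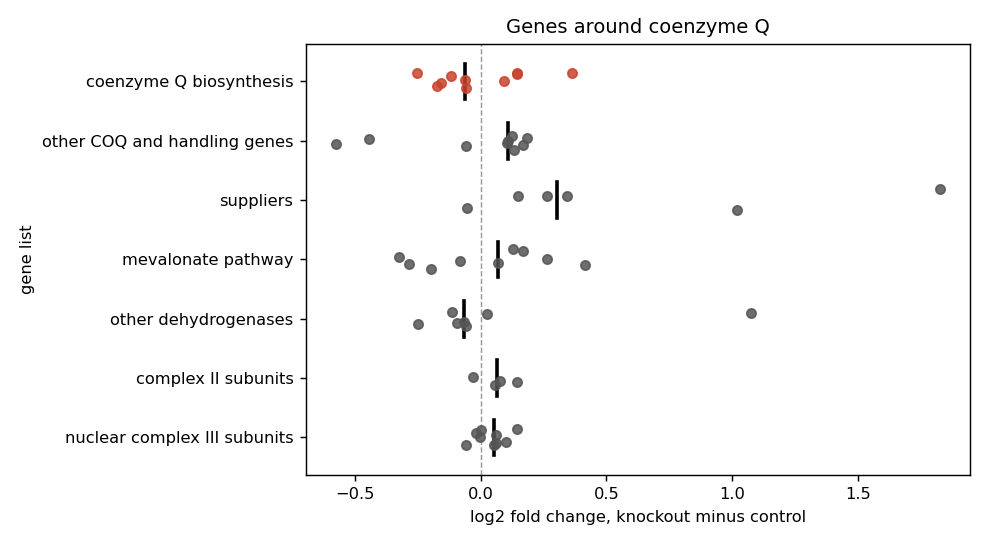
Log2 fold change (knockout minus control, horizontal axis) of every tested gene in the coenzyme Q biosynthesis list (red) and in 6 related lists (grey), 1 point per gene, with the median of each list as a black bar. The biosynthesis genes lie between -0.25 and 0.36 with a median of -0.060, and the points past 1 are Hpd, Tat and Chdh, which have few reads in these hearts, a control near 0 and lower means in the knockouts.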

How the data were processed

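Normalized counts from TruSeq libraries of 4 hearts, 2 controls and 2 knockouts, were analysed. The authors deposited a signal per gene, a normalized count: reads were placed by STAR 2.7.3a on GRCm38.p6 (nuclear copies of mitochondrial DNA masked), quantified by strand with Salmon 1.1.0, summed by gene with tximport and divided by 1 DESeq2 1.26.0 size factor per library. All values (100%) were whole reads within 0.001 reads. The authors' table of their own comparison (log2 fold changes, p-values) was not used.

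Genes that reached a normalized count of 10 in 2 or more of the 4 hearts were tested with limma 3.58.1 (R 4.3.3, mean-variance trend, two-sided) on log2(normalized count + 1), a scale that understates changes of low genes, with Benjamini-Hochberg adjustment over all 14522 genes at 0.05. The limma p-values set each difference against the spread between these hearts, moderated by the spread of all genes tested. The tests were also run on simulated data with changes of 1 or 2 log2 units. Those changes are larger than any fitted for the coenzyme Q genes, so the simulation does not cover changes of their size. Alternatives covered pseudocount, filter, scaling, a replicate block, each heart left out, the 2 mice with contradictory labels, other limma settings, edgeR 4.0.16 and DESeq2 1.42.0 on the reads. Transcript lengths and coordinates came from the GENCODE annotation of GRCm38, where all 10 gene identifiers had the same version. Figures used Python 3.11.15 and matplotlib 3.10.9.

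The genes and lists were chosen with earlier results of these data known. Named were all 10 genes, Ssbp1, and from each related list the called genes and the 3 with the smallest p, of which 1 is not reported here. Marker lists are given by sums and counts. Hepatocyte genes, single skeletal muscle genes, Tat, Ciapin1 and Fam161b were named after their values were seen. Adipocyte markers summed to 0.977 to 6.74 in controls against 0.765 to 1.65 in knockouts, with Cidec and Lep at 0. Sums in the controls and knockouts were 9309 to 10145 and 9784 to 10521 for endothelial markers. They were 1824 to 2689 and 1927 to 2009 for macrophage and 10193 to 10860 and 9702 to 11128 for smooth muscle and pericyte markers. For skeletal muscle markers the sums were 20422 to 21262 and 17789 to 20602. Most of this was Ckm (16123 to 18458 over the 4 hearts) and Acta1 (1662 to 4253). Myh1 was at 0, Actn3 and Myh4 at 0 to 0.824, and Tnnt3 at 2.69 to 4.94.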

Additional observations from a re-analysis of the deposited data

Results flagged for a closer look

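The 2 mice whose title and genotype field contradict each other belong to no group here. Their values were flagged only where they lay above both control hearts. The mouse titled control had a normalized count of 488 for Coq2, 465 for Coq6, 444 for Coq7 and 4052 for Coq8a. The mouse titled knockout had 239 for Pdss2, 522 for Coq2, 519 for Coq6, 472 for Coq7 and 4277 for Coq8a. The normalized counts summed over the 10 genes were 10064 and 10344 in these mice, above all 4 hearts of the comparison (8437 to 9995), but as CPM over nuclear genes they were 1117 and 1121, between the controls (1110 and 1139). Below both controls in both mice were Pdss1 (141 and 142), Coq3 (413 and 399) and Coq5 (1019 and 1025). Coq9 was at 2723 and 2653, the latter below both controls. The share of all genes above or below both controls in these mice was not computed.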

How the results depend on the processing

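The coenzyme Q genes called stayed at 0 in both directions under all 19 alternatives, and Pdss1 and Coq7 were positive in all 19. Scaling every library to equal totals over all genes, mitochondrial reads included, moved the median of all genes to 0.30 and that of the 10 genes to 0.24, or -0.061 relative to it. All 10 genes were then positive and the following reversed: Pdss2 0.18, Coq2 0.24, Coq3 0.14, Coq5 0.23, Coq8a 0.13, Coq9 0.046, Ssbp1 0.065, Pmvk 0.0092, Sqor 0.046 and Etfdh 0.18. Leaving out each heart in turn gave medians from -0.14 to 0.050, 1 to 28 genes called higher and 4 to 15 lower.

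The same ranges were -0.20 to 0.49 for Coq4, -0.027 to 0.21 for Coq6, -0.22 to 0.10 for Coq2, -0.28 to 0.049 for Etfdh, -0.038 to 0.19 for Sdha, -1.36 to 5.02 for Hpd and -1.34 to 3.49 for Chdh, each changing direction. With the 6 mice grouped by title Ssbp1 was 0.0038, Sqor 0.0020 and Sdhc -0.024, whereas grouped by genotype field Ssbp1 was -0.31. Hpd and Chdh were -0.20 and -0.47 with edgeR and -0.14 and -0.42 with DESeq2. Of all genes, called higher (11) and lower (6), the counts were 0 and 0 with 6 mice by title, 38 and 13 by genotype field, 6 and 0 for limma without a trend and 44 and 19 with DESeq2. 17 were called higher at a filter of 50 and 27 with equal totals over all genes. The causes were not tested.

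With the replicate number as a block 23 genes were called higher and no coenzyme Q gene. Deviations of same-numbered hearts correlated at 0.31 over genes, but with 2 pairs the numbers do not establish a pairing. The 2 hearts per group limit the intervals of the 10 genes to between 0.22 (Coq5) and 0.80 (Coq4) on either side.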
